A study of Homo sapiens with 59 samples.

Results

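The genes described here were 22 genes of glycolysis and 12 known targets of the hypoxia-inducible factors, 34 of the 60675 genes in a table of RNA-seq counts from A549 cells, a human lung adenocarcinoma line. They were chosen by symbol and each matched 1 gene in the table. The glycolysis genes were 2 glucose transporters, 15 glycolytic enzymes, 2 regulatory enzymes and 3 genes that set the fate of pyruvate and lactate. The series compares extracts and doses with vehicle: it treated A549 cells for 24 h with 70% ethanol extracts of herbal medicines, each at 3 doses, and sequenced mRNA as 100 bp read pairs on 59 libraries. Coptidis Rhizoma (goldthread rhizome; 4.4, 22 and 110 µg/mL) and Zizyphi Fructus (jujube fruit; 20, 100 and 500 µg/mL) had 2 libraries at each dose. Citri Unshius Pericarpium (mandarin peel; 20, 100 and 500 µg/mL), Cimicifugae Rhizoma (20, 100 and 500 µg/mL) and Bupleuri Radix (7.6, 38 and 190 µg/mL) had 3 libraries at each dose. Aconiti Lateralis Radix Preparata (processed aconite root) had 3 libraries at 20 µg/mL, 2 at 100 µg/mL and 3 at 500 µg/mL. Of the mixed prescriptions, Yijung-tang had 2 libraries and Banhasasim-tang 1 library at each of 20, 100 and 500 µg/mL. Vehicle was DMSO in 3 libraries, at 0.1% in the sample labels and 2% in the series text. The low, medium and high doses below are these. A549 is a single cancer line, and no group is labelled as grown in low oxygen.

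Glycolysis splits glucose into pyruvate: transporters bring glucose in, hexokinase traps it, phosphofructokinase commits it, and the lower enzymes recover ATP. Lactate dehydrogenase and the lactate exporter then clear pyruvate, while pyruvate dehydrogenase kinase switches pyruvate dehydrogenase off. When oxygen falls, prolyl hydroxylases no longer mark the hypoxia-inducible factors for destruction, and these factors raise many glycolytic genes together with genes for blood vessel growth, acid handling and mitophagy. Tumour cells often run glycolysis with oxygen present, and several members are therefore highly expressed in cultured carcinoma lines.

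Library totals ran from 17214755 to 39751161 expected counts, and all 34 genes were among the 18568 that passed the filter on low counts. The 34 genes took 2.02% to 2.06% of the counts in vehicle libraries and 1.66% to 2.57% over all libraries. Levels are given as CPM (counts relative to library size), with library sizes scaled by trimmed mean of M values (TMM). The epithelial keratins KRT8, KRT18 and KRT7 lay at 3440 to 3590, 2580 to 2850 and 2110 to 2180 CPM in vehicle libraries. Other epithelial markers were far lower there. CDH1 lay at 30.5 to 31.5, KRT19 at 20.9 to 24.8, EPCAM at 3.66 to 5.53 and MUC1 at 1.53 to 1.64 CPM. Of 12 markers of other cell types, PTPRC, CD3E and ALB were at 0 CPM in every vehicle library, COL1A1 lay at 32 to 33.2 CPM, CD14 at 1.53 to 2.51 CPM and CD79A at 0.352 to 0.488 CPM, and the other 6 reached at most 0.154 CPM. Of 7 markers of alveolar type 2 cells, ABCA3 lay at 20.1 to 21.8 CPM and NAPSA at 0.861 to 1.23 CPM in vehicle, while SFTPA1, SFTPB, SFTPC, NKX2-1 and LAMP3 reached at most 0.235 CPM. Mitochondrial ribosomal RNA took 9.13% and 9.36% of counts in Coptidis low, 10.3% and 11.1% in Coptidis medium and 6.09% and 6.42% in Coptidis high, and 11.5% and 15.2% in the medium and high dose of Banhasasim-tang, against 2.24% to 2.43% in vehicle. Its part in the Coptidis and Banhasasim-tang values was not tested. Libraries carried codes in 4 sets, Coptidis with Zizyphi, Citri with Cimicifugae, Bupleuri with Aconiti and the 2 prescriptions together, while vehicle had a code of its own, so an effect shared by a set and that of its extracts cannot be told apart in comparisons with vehicle. In bulk RNA, fewer cells and less RNA per cell cannot be told apart either. Antisense noncoding genes took 3149 to 4601 CPM in 4 libraries (Citri high replicate 3, Citri medium replicate 3, Cimicifugae medium replicate 2 and Cimicifugae low replicate 2), against 2762 to 2806 CPM in vehicle. The next highest were the Coptidis high libraries at 3133 and 3137 CPM. Results that move without these 4 libraries are given both ways.

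In vehicle-treated cells the highest levels were those of enzymes from aldolase A down to lactate dehydrogenase A. Per kb of merged exons, GAPDH had the highest level at 2060 ± 74.8 CPM per kb (SD, n = 3), followed by the enolase ENO1 at 467, TPI1 at 403, PKM at 325, ALDOA at 312 and LDHA at 288 CPM per kb. The transcript of HK2, the inducible hexokinase isozyme, was the lowest member at 0.279 ± 0.0554 CPM per kb. That of the housekeeping isozyme HK1 stood at 12 CPM per kb. Among hypoxia targets the carbonic anhydrase CA12 was highest at 53.9 CPM per kb, and CA9, the tumour carbonic anhydrase often used as a hypoxia marker, lay at 1.33 ± 0.235 CPM per kb. ALDOC, PDK1, PFKFB4, EGLN3 and ANKRD37 were at or below 1.06 CPM per kb. The mean level of every hypoxia target was thus below those of the 11 most abundant glycolysis genes.

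**Figure D1:**
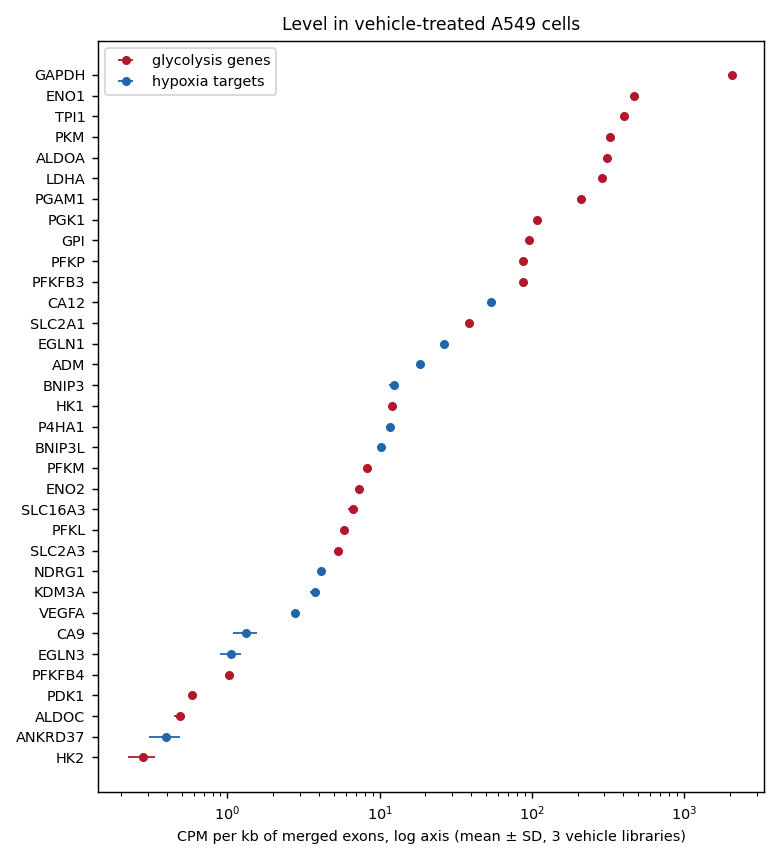
Level of each of the 34 genes in the 3 vehicle libraries, in CPM per kb of merged exons on a log axis, with the mean (point) and SD (line). GAPDH is the highest at 2060 CPM per kb and HK2 the lowest at 0.279 CPM per kb.

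Differences from vehicle went in both directions, and Aconiti medium, Coptidis high and Aconiti high had the most. A gene was called at an adjusted p below 0.05 (edgeR quasi-likelihood test, Benjamini-Hochberg over all 18568 genes). Aconiti medium changed 16 of the 34 genes, 6 higher and 10 lower, where 17.5% of all tested genes were called (8.23% higher, 9.28% lower). Aconiti high changed 11, 3 higher and 8 lower, where 4.65% of all tested genes were called (2.56% higher, 2.09% lower). Coptidis high changed 13, 4 higher and 9 lower, where 12.6% of all genes were called (6.41% higher, 6.14% lower). Coptidis medium changed 5 (3 higher, 2 lower), against 3.27% of all genes (1.76% higher, 1.51% lower), and Coptidis low changed 1, VEGFA, against 0.447%. Bupleuri high changed 5 (2 higher, 3 lower), against 3.36% of all genes (2.05% higher, 1.31% lower), and Yijung-tang high changed 4 (2 higher, 2 lower), against 1.37% (0.781% higher, 0.587% lower). Citri high changed 1 gene, against 4.42% of all genes, and Cimicifugae high 1 gene, against 0.377%. In each of these comparisons but Citri high, the share of the 34 genes called was above that of all genes. The 34 genes were chosen with earlier results of these data known, and the excess was not tested.

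Leaving out the 4 libraries with much antisense RNA raised most of these counts, and those of all genes with them. The counts were then 20 in Aconiti medium (32.8% of all genes), 13 in Aconiti high (15% of all genes), 22 in Coptidis high (27.9%), 12 in Coptidis medium (12.4%), 3 in Coptidis low (3.52%), 13 in Bupleuri high (14.3%), 13 in Yijung-tang high (9.11%), 5 in Cimicifugae high (3.72%) and 1 in Citri high (1.45%). Counts also moved with single libraries. For fits without 1 library, here and below, the shares of all genes called are not given. Aconiti medium called 10 without its replicate 1, Aconiti high 7 without its replicate 3 or vehicle replicate 3, Coptidis medium 3 without either of its libraries, Yijung-tang high 2 without its replicate 1, Bupleuri high 2 or 3 without any 1 library, and Coptidis low 0 without any 1 library. Citri high called 9 without its replicate 1, 7 without its replicate 2 and 0 without its replicate 3 or any 1 vehicle library.

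The other comparisons with vehicle called none of the 34 genes. For Zizyphi at high, medium and low dose edgeR and DESeq2 both called 0 members, with 0, 1 and 1 at an unadjusted p below 0.05, where 0% of all genes were called. The share of all genes called was likewise 0% in Citri medium, Cimicifugae low, Bupleuri low, Aconiti low and Yijung-tang low, 0.00539% in Citri low and Bupleuri medium, 0.0108% in Yijung-tang medium and 0.0269% in Cimicifugae medium. Citri medium and low had 8 and 1 members at an unadjusted p below 0.05, and 0 calls by DESeq2. Cimicifugae medium and low had 8 and 4 such members, with 1 and 0 calls by DESeq2. Bupleuri medium and low had 4 each, Aconiti low had 2, and Yijung-tang medium and low had 2 each, with 0 calls by DESeq2 in all of these. The shares of all genes at an unadjusted p below 0.05, or called by DESeq2, are not given here. The counts of members at these thresholds therefore have no background. Without the 4 libraries, Cimicifugae medium called 6, Bupleuri medium and low 3 each and Aconiti low 2, where 4.37%, 3.32%, 2.94% and 2.15% of all genes were called. Without Citri medium replicate 1, Citri medium called 6.

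**Figure D2:**
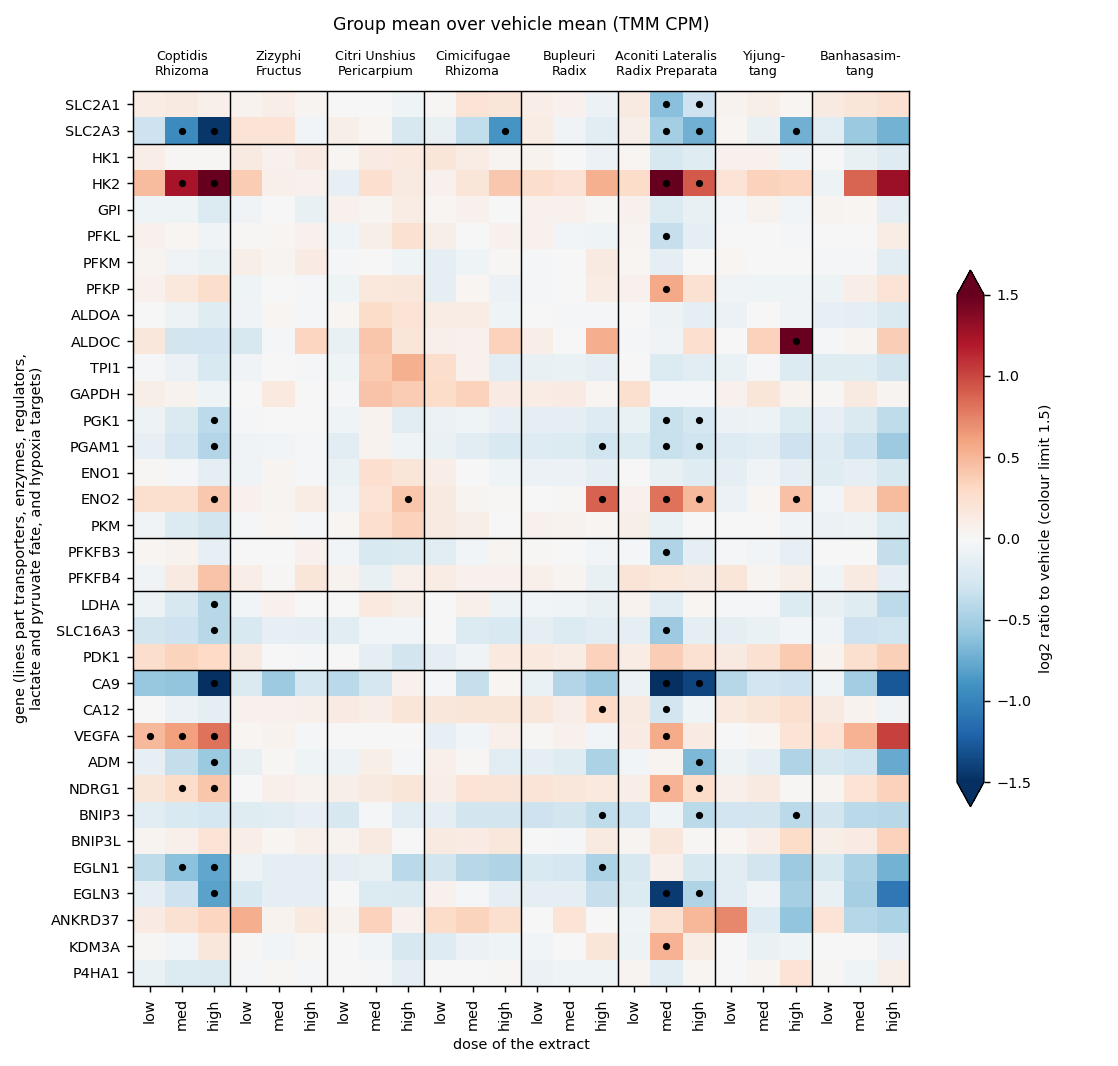
Log2 ratio of each group's mean TMM CPM to the vehicle mean for the 34 genes (rows) and the low, medium and high dose of the 8 extracts (columns), with black dots where the edgeR adjusted p against vehicle was below 0.05; Banhasasim-tang has 1 library per dose and no test. HK2 and SLC2A3 stand out in Coptidis, CA9 and EGLN3 in Aconiti medium.

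The glycolysis genes and the hypoxia targets did not move as blocks. Against vehicle, Coptidis high called 7 of 22 glycolysis genes (2 higher, 5 lower) and 6 of 12 hypoxia targets (2 higher, 4 lower). Their median log2 fold changes were -0.14 for glycolysis genes and -0.18 for hypoxia targets, where the median of all tested genes was -0.01. Aconiti medium called 10 glycolysis genes (3 higher, 7 lower) and 6 hypoxia targets (3 higher, 3 lower), with medians of -0.15 and 0.06 and -0.01 over all genes. Aconiti high called 6 glycolysis genes (2 higher, 4 lower) and 5 hypoxia targets (1 higher, 4 lower), with medians of -0.12 and -0.02. In Bupleuri high the calls were 2 glycolysis genes and 3 hypoxia targets, and in Yijung-tang high 3 and 1. In the fit of all libraries, 21 of all 34 genes were called in at least 1 comparison with vehicle and 13 in none. Among those 13 were 10 glycolysis genes (HK1, GPI, PFKM, ALDOA, TPI1, GAPDH, ENO1, PKM, PFKFB4 and PDK1) and 3 hypoxia targets (BNIP3L, ANKRD37 and P4HA1). CA12 was the 1 gene called higher in one comparison with vehicle and lower in another. All comparisons with vehicle share the same 3 vehicle libraries. The share of all tested genes called in at least 1 of them was not computed, so the counts of 21 and 13 have no background. They were not counted without the 4 libraries with much antisense RNA. Coptidis high alone then called 22 members, so at least 1 of the 13 was called in that fit.

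**Figure D3:**
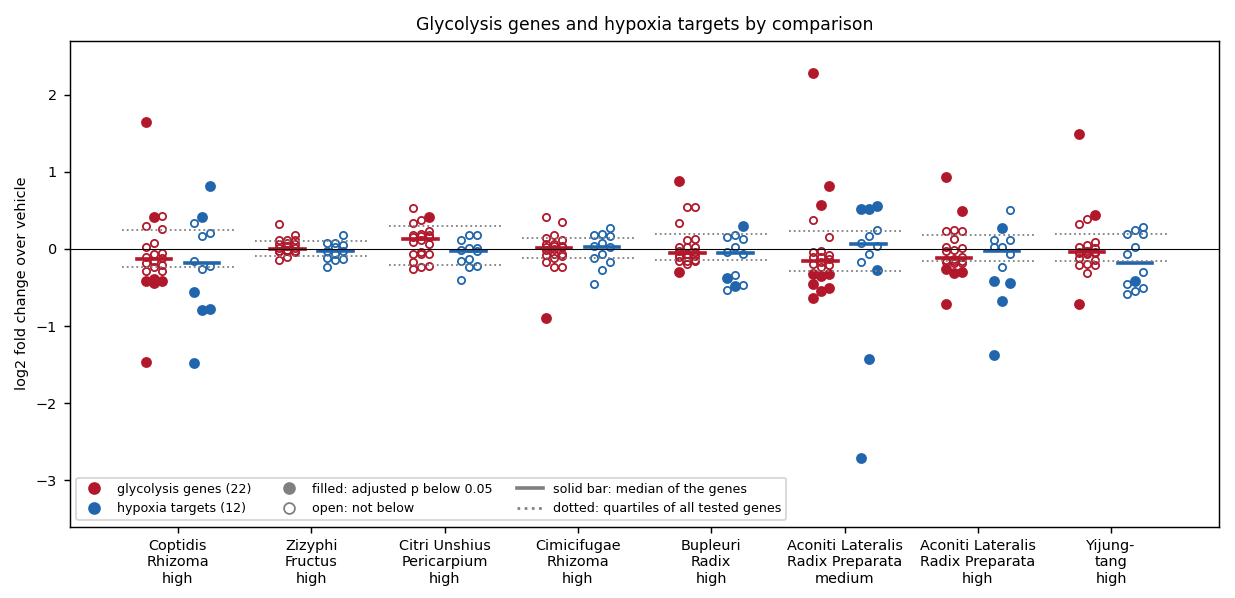
Log2 fold change over vehicle of the 22 glycolysis genes (red) and 12 hypoxia targets (blue) at the high dose of 7 extracts and at the medium dose of Aconiti, filled where the edgeR adjusted p was below 0.05, with a bar at each median and dotted lines at the quartiles of all tested genes. Both classes scatter to both sides of 0, with HK2 at 2.28 and CA9 at -2.71 the extremes, both in Aconiti medium.

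SLC2A3, which encodes the high-affinity glucose transporter GLUT3, fell in more comparisons with vehicle than any other member, 6 of 21. It had 32.9, 33.2 and 32.3 CPM in vehicle, 26.4 and 26.4 CPM in Coptidis low, 17.2 and 16.8 CPM in Coptidis medium, and 10.4 and 13.5 CPM in Coptidis high. All 6 Coptidis libraries lay below all vehicle libraries, in the order of the dose. The log2 fold change was -1.46 ± 0.11 (SE) at the high dose (edgeR adjusted p = 3.01e-13) and -0.95 ± 0.1 at the medium dose (edgeR adjusted p = 3.80e-08). Cimicifugae high had 19, 15.8 and 18.4 CPM, all below vehicle (log2 fold change -0.89 ± 0.09, edgeR adjusted p = 1.46e-08). Aconiti high had 19.8, 19.8 and 20.1 CPM and Yijung-tang high 19.8 and 20.1 CPM, and both fell by 0.72 on the log2 scale (edgeR adjusted p = 6.09e-07 and 1.14e-05). Aconiti medium had 22.3 and 23.9 CPM (log2 fold change -0.51 ± 0.1, edgeR adjusted p = 2.14e-04). The Zizyphi high libraries, at 32.1 and 31.7 CPM, lay just under the vehicle range. The calls of SLC2A3 against vehicle held in every alternative run.

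SLC2A1, which encodes GLUT1, the main glucose transporter of most carcinoma cells, behaved differently. Among the comparisons with vehicle it was called in Aconiti medium and high. It had 120.8 and 116.6 CPM at the medium dose and 151, 153.1 and 139.2 CPM at the high dose, against 182.4, 178.2 and 189.4 CPM in vehicle. All 5 of these libraries lay below every vehicle library. The log2 fold changes were -0.63 ± 0.08 at the medium dose (edgeR adjusted p = 3.41e-07) and -0.31 ± 0.07 at the high dose (edgeR adjusted p = 0.00693). The high-dose call was lost without Aconiti high replicate 3 or vehicle replicate 3. In Coptidis high, where SLC2A3 was lowest, SLC2A1 had 193.3 and 193 CPM, above the vehicle range and not called.

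HK2 had the largest log2 fold change upward of the 34 genes, and the lowest level per kb in vehicle. It had 1.33, 1.74 and 2 CPM in vehicle, 2.32 and 2.35 CPM in Coptidis low, 3.62 and 4.34 CPM in Coptidis medium, and 5.08 and 5.45 CPM in Coptidis high. The Coptidis libraries again followed the dose without overlap with vehicle. Its log2 fold change was 1.64 ± 0.2 in Coptidis high (edgeR adjusted p = 7.43e-08) and 1.24 ± 0.21 in Coptidis medium (edgeR adjusted p = 1.14e-04). Aconiti medium had 6.7 and 9.68 CPM, the highest levels in the series, and a log2 fold change of 2.28 ± 0.19 (edgeR adjusted p = 1.35e-11). Aconiti high had 3.36, 3.13 and 3.1 CPM and a log2 fold change of 0.93 ± 0.18 (edgeR adjusted p = 0.00109). Per kb of merged exons, HK2 made up 2.28% ± 0.5 of HK1 and HK2 together in vehicle (SD, n = 3). That share was 11.7% ± 2.55 in Aconiti medium, 6.63% ± 0.398 in Coptidis high and 4.75% ± 0.18 in Aconiti high (n = 2, 2 and 3). HK1 therefore remained the more abundant transcript in every group. These 4 calls of HK2 held in every alternative. A noncoding RNA on the opposite strand, AC019069.1, overlaps HK2 at 0.486 CPM in vehicle, and its log2 fold change was 1.92 in Aconiti medium and 1.62 in Coptidis high. The sources used here do not say how the counting used strand, so reads of HK2 and of this RNA cannot be told apart.

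Other enzymes of the upper pathway moved less. PFKP, the platelet-type phosphofructokinase and the main isozyme here, had 616 and 628.9 CPM in Aconiti medium, against 427.4, 428.1 and 406.4 CPM in vehicle, without overlap. Its log2 fold change was 0.57 ± 0.11 (edgeR adjusted p = 1.56e-04). PFKL, the liver-type isozyme, had 41.1 and 40.4 CPM in Aconiti medium, against 51, 51.1 and 53.3 CPM in vehicle (log2 fold change -0.35 ± 0.1, edgeR adjusted p = 0.0131). Per kb of merged exons, PFKP made up 86.1% ± 0.339 of the 3 phosphofructokinases in vehicle (SD, n = 3). In Aconiti medium it made up 91.4% ± 0.158 (SD, n = 2). PFKFB3, which makes the activator of phosphofructokinase, had 377.5 and 402.1 CPM in Aconiti medium, against 543.1, 529 and 521.7 CPM in vehicle. It fell by 0.45 on the log2 scale (edgeR adjusted p = 0.00357). The calls of PFKL and PFKFB3 were lost without Aconiti medium replicate 1, and that of PFKL also without Aconiti medium replicate 2 or vehicle replicate 3.

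ALDOC, the brain-type aldolase, rose in Yijung-tang high. Its libraries had 4.75 and 3.21 CPM, against 1.45, 1.29 and 1.54 CPM in vehicle. The 2 libraries differed from each other but lay above every other library of the series. The log2 fold change was 1.49 ± 0.22 (edgeR adjusted p = 2.16e-05). Per kb of merged exons, ALDOC was 0.156% ± 0.00867 of aldolase A and C together in vehicle (SD, n = 3). In Yijung-tang high it was 0.446% ± 0.1 (SD, n = 2), so aldolase A remained the bulk of the transcript. A gene on the same strand, AC005726.1, overlaps ALDOC at 5.49 CPM in vehicle, and its log2 fold change there was 0.35 (edgeR adjusted p = 0.89).

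Of the lower enzymes, PGAM1 and PGK1 fell by small amounts. PGAM1, the phosphoglycerate mutase, had 393.5 and 396.8 CPM in Coptidis high, 437.3, 438.3 and 429.8 CPM in Aconiti high, 432.1 and 420.1 CPM in Aconiti medium and 422.1, 434 and 451.3 CPM in Bupleuri high, against 529, 524.9 and 556.9 CPM in vehicle. None of these libraries overlapped vehicle. The log2 fold changes ran from -0.44 ± 0.1 in Coptidis high (edgeR adjusted p = 0.00117) to -0.3 ± 0.09 in Bupleuri high (edgeR adjusted p = 0.0384). PGK1, phosphoglycerate kinase, had 457.1 and 458.5 CPM in Coptidis high, 482.9 and 469.4 CPM in Aconiti medium and 514.5, 487 and 498.5 CPM in Aconiti high, against 587.2, 595.2 and 618.6 CPM in vehicle. Its log2 fold changes were -0.39 ± 0.09, -0.33 ± 0.09 and -0.26 ± 0.08 (edgeR adjusted p = 0.00196, 0.00595 and 0.0443). The PGAM1 calls in Aconiti high and Bupleuri high and the PGK1 call in Aconiti high were lost when any 1 library of either group was left out, and the PGAM1 call in Aconiti medium without either of its libraries or vehicle replicate 3. The PGK1 call in Aconiti medium was lost without either of its libraries, and that in Coptidis high without Coptidis high replicate 2. PGAM1 and PGK1 have processed pseudogenes, but those named after them held at most 0.396% and 0.017% of the counts of gene and copies together in any library.

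ENO2, the neuronal enolase, rose in 6 comparisons, more than any other member. Bupleuri high had 58.7, 59.8 and 53.5 CPM and Aconiti medium 54.5 and 54.9 CPM, against 31, 32.4 and 30.1 CPM in vehicle. Aconiti high had 46.1, 45.6 and 39.6 CPM, Yijung-tang high 44.2 and 40.3 CPM, Coptidis high 40.7 and 41.9 CPM, and Citri high 38.7, 41.2 and 45.3 CPM, all above the vehicle range. The log2 fold change was 0.88 ± 0.08 in Bupleuri high (edgeR adjusted p = 6.62e-10), 0.81 ± 0.09 in Aconiti medium (edgeR adjusted p = 5.35e-09) and 0.41 to 0.49 in the other 4 comparisons. In Bupleuri medium and low, ENO2 lay between 29.7 and 32.3 CPM, within or just below the vehicle range. Per kb of merged exons, ENO2 was 3.06% ± 0.203 of ENO1 and ENO2 together in Bupleuri high. In vehicle it was 1.54% ± 0.0581 (SD, n = 3 each). The Citri call was lost without Citri high replicate 3, one of the 4 libraries with much antisense RNA, or any 1 vehicle library, and the Yijung-tang call without Yijung-tang high replicate 1. LRRC23 overlaps ENO2 on the same strand, and its log2 fold change was 0.05 in Bupleuri high and -0.05 in Aconiti medium but 0.77 in Citri high (edgeR adjusted p = 0.0504), so reads shared with LRRC23 cannot be told apart there.

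Of the 3 genes of pyruvate and lactate handling, SLC16A3 fell in Aconiti medium and Coptidis high and LDHA in Coptidis high. PDK1 was not called against vehicle in the fit of all libraries. SLC16A3, the lactate exporter MCT4, had 40 and 41.9 CPM in Aconiti medium and 42.9 and 46.7 CPM in Coptidis high, against 61.9, 55.4 and 62.6 CPM in vehicle, without overlap. Its log2 fold changes were -0.55 ± 0.1 and -0.42 ± 0.1 (edgeR adjusted p = 1.06e-04 and 0.00392). LDHA, lactate dehydrogenase A, had 1330 and 1340 CPM in Coptidis high, against 1780, 1776 and 1813 CPM in vehicle (log2 fold change -0.42 ± 0.1, edgeR adjusted p = 0.00345). The Coptidis calls were lost without Coptidis high replicate 2, and that of LDHA also without Coptidis high replicate 3. PDK1, which switches pyruvate dehydrogenase off, had 10.9 and 10.5 CPM in Coptidis high and 11 and 11.4 CPM in Aconiti medium, against 9.04, 8.37 and 8.65 CPM in vehicle, all above the vehicle range.

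**Figure D4:**
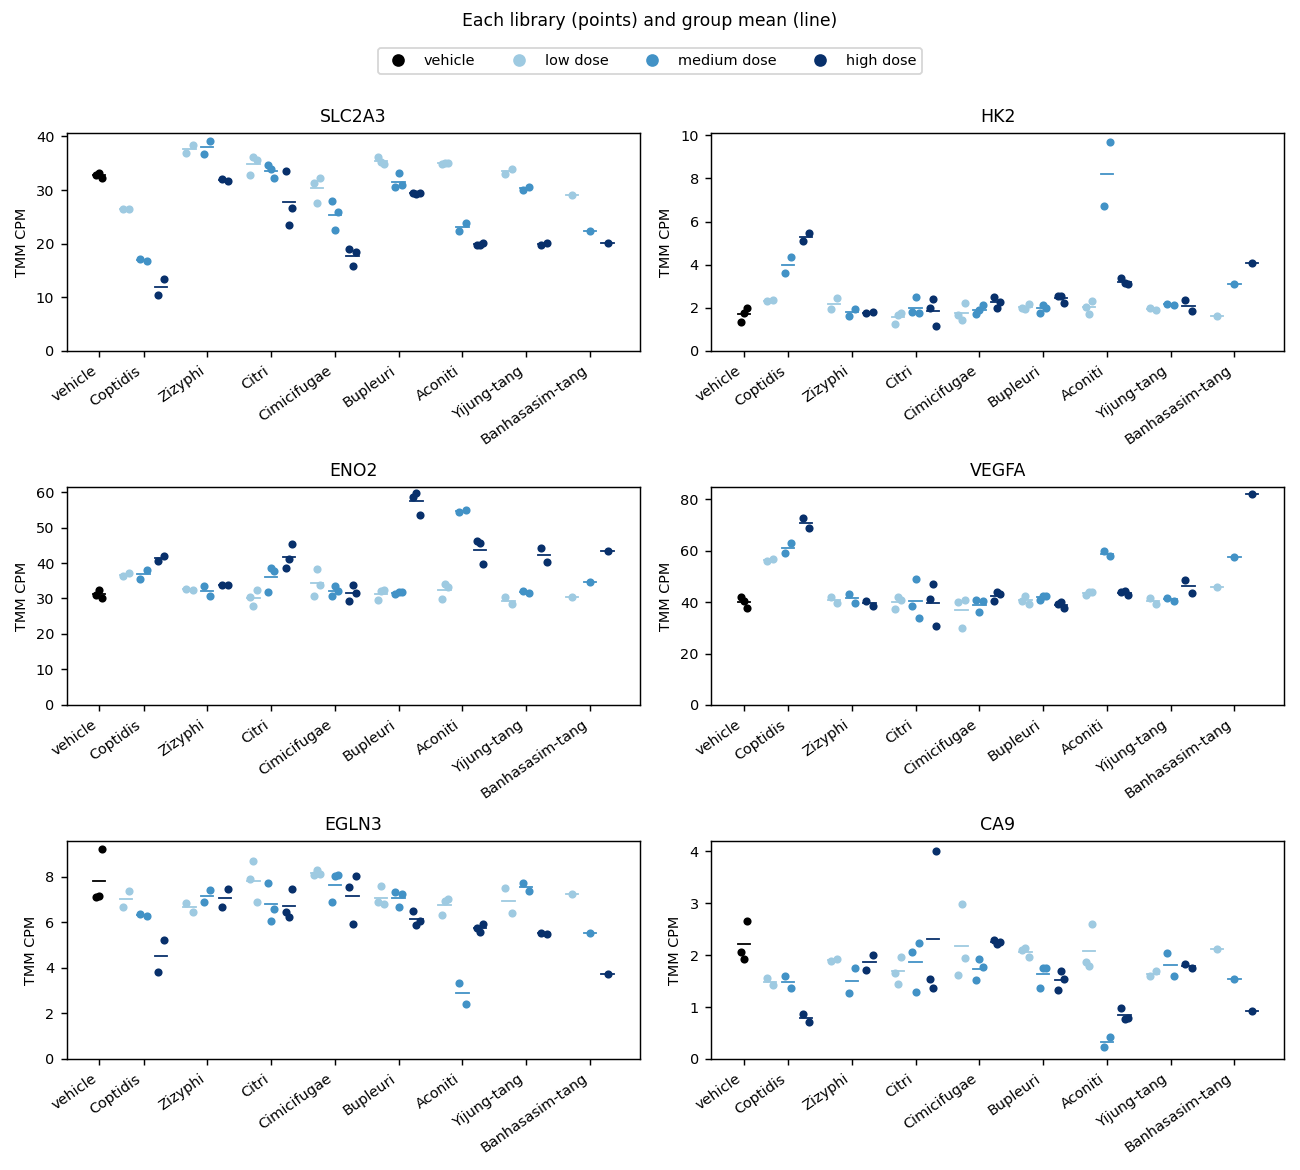
TMM CPM of SLC2A3, HK2, ENO2, VEGFA, EGLN3 and CA9 in every library (points) with the group mean (line), for vehicle and for the low, medium and high dose of each extract. In Coptidis, SLC2A3 goes down and HK2 and VEGFA go up with dose, while in Aconiti the medium dose is the extreme for HK2, ENO2, VEGFA, EGLN3 and CA9.

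Among the hypoxia targets, CA9 fell furthest. It had 0.234 and 0.429 CPM in Aconiti medium, 0.991, 0.767 and 0.793 CPM in Aconiti high and 0.866 and 0.705 CPM in Coptidis high, against 2.07, 1.92 and 2.66 CPM in vehicle. No library of these 3 groups reached the vehicle range. The log2 fold changes were -2.71 ± 0.36 (edgeR adjusted p = 2.44e-07), -1.37 ± 0.27 (edgeR adjusted p = 9.77e-04) and -1.48 ± 0.32 (edgeR adjusted p = 0.00109). ARHGEF39 on the opposite strand overlaps CA9 at 23.7 CPM in vehicle. Its log2 fold changes were -0.51, -0.12 and -0.65 in the same comparisons (edgeR adjusted p = 3.79e-05, 0.518 and 1.54e-06). The strand setting is not given, so reads of CA9 and ARHGEF39 cannot be told apart. CA12, the second membrane carbonic anhydrase, had 478.2, 476.7 and 498.2 CPM in Bupleuri high and 325.2 and 330.4 CPM in Aconiti medium, against 392.5, 391.2 and 398 CPM in vehicle. It thus rose in Bupleuri high (log2 fold change 0.3 ± 0.07, edgeR adjusted p = 0.0128) and fell in Aconiti medium (-0.27 ± 0.08, edgeR adjusted p = 0.0196). The CA12 call in Bupleuri high was lost without Bupleuri high replicate 3 or vehicle replicate 1 or 2, and that in Aconiti medium without any 1 of its libraries or of vehicle.

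VEGFA, the angiogenic growth factor, rose with Coptidis at every dose. It had 42.2, 40.5 and 37.6 CPM in vehicle, 55.9 and 56.7 CPM in Coptidis low, 59.1 and 63.2 CPM in Coptidis medium, and 72.9 and 68.9 CPM in Coptidis high. The groups did not overlap. The log2 fold changes were 0.49 ± 0.12, 0.61 ± 0.12 and 0.82 ± 0.12 from low to high dose (edgeR adjusted p = 0.0449, 9.95e-04 and 2.12e-06), and the call at the low dose was lost when any 1 of its libraries or of vehicle was left out. Aconiti medium had 60 and 57.9 CPM (log2 fold change 0.56 ± 0.12, edgeR adjusted p = 5.11e-04), while Aconiti high had 43.9, 44.4 and 42.7 CPM and was not called. ADM, which encodes the vasodilator adrenomedullin, fell where VEGFA rose in Coptidis high, with 34.6 and 33.5 CPM, against 49.9, 50.9 and 49.4 CPM in vehicle. Its log2 fold change there was -0.56 ± 0.16 (edgeR adjusted p = 0.0139), a call lost without either Coptidis high library. In Aconiti high it had 31.9, 32.8 and 29.6 CPM and fell by 0.67 on the log2 scale (edgeR adjusted p = 0.00177). The Aconiti medium libraries, at 53.7 and 49.1 CPM, lay on either side of the vehicle range.

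The prolyl hydroxylases EGLN1 and EGLN3, which mark the hypoxia-inducible factors for destruction and are themselves induced by them, both fell in Coptidis high. EGLN3 had 3.35 and 2.41 CPM in Aconiti medium, 3.8 and 5.21 CPM in Coptidis high and 5.76, 5.55 and 5.91 CPM in Aconiti high, against 7.09, 7.15 and 9.22 CPM in vehicle. The log2 fold changes were -1.43 ± 0.15 (edgeR adjusted p = 1.01e-09), -0.79 ± 0.14 (edgeR adjusted p = 9.35e-05) and -0.44 ± 0.12 (edgeR adjusted p = 0.0248). The Aconiti high call was lost without any 1 of its libraries or vehicle replicate 3. SPTSSA overlaps EGLN3 on the same strand at 99.3 CPM in vehicle. It had a log2 fold change of -0.6 in both Aconiti medium and Coptidis high (edgeR adjusted p = 0.0109 and 0.0151). Reads shared by EGLN3 and SPTSSA cannot be told apart here. EGLN1 had 114 and 109.1 CPM in Coptidis high, 127.6 and 123.5 CPM in Coptidis medium and 135, 141.8 and 135.5 CPM in Bupleuri high, against 191.8, 193.1 and 188.9 CPM in vehicle. Its log2 fold changes were -0.78 ± 0.15, -0.61 ± 0.15 and -0.48 ± 0.13 (edgeR adjusted p = 2.62e-04, 0.0134 and 0.033). In Aconiti medium, where EGLN3 was lowest, EGLN1 had 198.4 and 204.9 CPM, above the vehicle range and not called. Aconiti high had 166.1, 156.9 and 163.2 CPM of EGLN1, and Bupleuri high 6.51, 5.87 and 6.04 CPM of EGLN3, all below vehicle and not called. Between Bupleuri high and Aconiti high the log2 difference was -0.24 ± 0.13 for EGLN1 and 0.1 ± 0.12 for EGLN3, neither called (edgeR adjusted p = 0.789 and 1). The EGLN1 call in Bupleuri high was lost when any 1 library of either group was left out, and that in Coptidis medium without either Coptidis medium library.

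NDRG1, a stress-responsive gene induced by low oxygen, rose by small amounts. It had 57.1 and 51.4 CPM in Coptidis high, 49 and 48.4 CPM in Coptidis medium, 56.8 and 59.4 CPM in Aconiti medium and 49.7, 49.2 and 47.8 CPM in Aconiti high, against 40.6, 38.9 and 41.8 CPM in vehicle. All of these libraries lay above vehicle, and the log2 fold changes ran from 0.27 to 0.52 (edgeR adjusted p between 3.16e-07 and 0.0236). The call in Coptidis medium was lost without either of its libraries or vehicle replicate 2. BNIP3, which targets mitochondria for autophagy, had 52, 49.3 and 47.5 CPM in Aconiti high, 49.7, 48.5 and 53.1 CPM in Bupleuri high and 47.5 and 51.3 CPM in Yijung-tang high, against 60.8, 67 and 69.6 CPM in vehicle. Its log2 fold changes were -0.41 ± 0.08, -0.38 ± 0.08 and -0.41 ± 0.09 (edgeR adjusted p = 0.00119, 0.00358 and 0.0103). The Yijung-tang call was lost without either of its libraries or vehicle replicate 2 or 3. BNIP3 was below 0 in log2 fold change in all 21 comparisons with the shared vehicle, and NDRG1 above 0 in all 21. As they share vehicle, these comparisons are not independent, and the share of all genes with the same sign throughout was not computed. KDM3A, a histone demethylase induced by low oxygen, had 69.5 and 74.1 CPM in Aconiti medium, against 51.6, 52.9 and 46.1 CPM in vehicle (log2 fold change 0.52 ± 0.18, edgeR adjusted p = 0.0386). That call was lost without either Aconiti medium library or vehicle replicate 1 or 3.

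The promoters of 4 of these genes are shown because, in each of the 2 classes, they had the largest changes in Aconiti medium, the comparison with vehicle that called the most members. The glycolysis genes HK2 and ENO2 rose there, and the hypoxia targets CA9 and EGLN3 fell. Each line gives the 250 bases before the RefSeq start of the gene on its own strand, 5′ to 3′, from RefSeq on GRCh38.p14: HK2 at chr2:74833877-74834126 (plus strand), ENO2 at chr12:6914330-6914579 (plus strand), CA9 at chr9:35673678-35673927 (plus strand) and EGLN3 at chr14:33951075-33951324 (minus strand). Capitals mark the core sequences ACGTG and GCGTG of the hypoxia response element on either strand, of which ACGTG also lies within the E-box CACGTG.
HK2: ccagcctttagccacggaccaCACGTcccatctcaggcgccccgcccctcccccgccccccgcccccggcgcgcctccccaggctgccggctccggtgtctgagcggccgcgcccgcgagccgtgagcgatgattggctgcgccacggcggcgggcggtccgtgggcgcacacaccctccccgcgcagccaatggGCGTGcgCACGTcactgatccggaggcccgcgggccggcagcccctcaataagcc
ENO2: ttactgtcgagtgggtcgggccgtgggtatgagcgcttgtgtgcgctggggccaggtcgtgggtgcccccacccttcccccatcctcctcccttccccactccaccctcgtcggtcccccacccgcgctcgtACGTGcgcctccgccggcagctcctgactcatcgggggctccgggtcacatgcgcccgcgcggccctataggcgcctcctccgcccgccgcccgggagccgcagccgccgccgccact
CA9: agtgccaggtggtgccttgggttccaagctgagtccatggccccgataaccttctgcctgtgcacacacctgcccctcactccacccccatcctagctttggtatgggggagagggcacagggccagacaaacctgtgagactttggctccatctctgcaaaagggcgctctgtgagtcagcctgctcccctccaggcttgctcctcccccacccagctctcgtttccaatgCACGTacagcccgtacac
EGLN3: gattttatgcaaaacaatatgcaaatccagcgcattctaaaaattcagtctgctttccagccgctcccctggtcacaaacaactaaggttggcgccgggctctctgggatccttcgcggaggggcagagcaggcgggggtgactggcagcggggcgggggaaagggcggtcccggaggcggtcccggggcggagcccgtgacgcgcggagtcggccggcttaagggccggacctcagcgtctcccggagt
The HK2 promoter held 3 of these cores, 2 ACGTG and 1 GCGTG, and those of ENO2 and CA9 held 1 ACGTG each. The EGLN3 promoter held 0, and none of the 4 held CACGTG. Over all 35116 promoters of the RefSeq table, 18.5% held ACGTG, 32.2% GCGTG, 43.2% either and 6.34% CACGTG. Promoters were found for 30 of the 34 genes, and 20 of these held either core, 12 of 21 glycolysis genes and 8 of 9 hypoxia targets. The cores stood in promoters of genes that rose (HK2, ENO2) and of a gene that fell (CA9), and a match is a run of letters, not a measured binding site.

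Within an extract, high was set against low dose, which does not use the vehicle libraries. Coptidis high against low called 3 of the 34 genes, where 2.31% of all genes were called. HK2 rose by 1.17 ± 0.22 on the log2 scale (edgeR adjusted p = 9.53e-04), while SLC2A3 (-1.14 ± 0.11) and EGLN3 (-0.64 ± 0.15) fell. The EGLN3 call was lost without Coptidis high replicate 2 or either low-dose library. Aconiti high against low called 6, where 3.29% of all genes were called: HK2 (0.65) and ENO2 (0.43) rose, and SLC2A1 (-0.46), ADM (-0.63), SLC2A3 (-0.81) and CA9 (-1.28) fell. HK2 was lost there without any 1 high-dose library or without low-dose replicate 1 or 2. Yijung-tang high against low called 3, where 0.431% were called: ALDOC (1.47) and ENO2 (0.52) rose and SLC2A3 (-0.75) fell. ALDOC was lost without Yijung-tang high replicate 1, and ENO2 without that library or low-dose replicate 2. Citri called 2, where 3.54% were called: ENO2 rose by 0.47, and SLC2A3 had 33.5, 23.4 and 26.7 CPM at the high dose, against 32.8, 36.1 and 35.6 CPM at the low dose, with a log2 fold change of -0.33. The Citri SLC2A3 call was lost without the 4 libraries with much antisense RNA and without any 1 of 5 of the 6 libraries, all but high-dose replicate 1, and ENO2 without low-dose replicate 1 or 2, while 8 members were called without high-dose replicate 1. Cimicifugae called SLC2A3 alone (-0.78), where 0.221% were called, and Bupleuri ENO2 alone (0.87), where 1.58% were called. Without the 4 libraries with much antisense RNA the counts of high against low were 11 in Coptidis, 11 in Aconiti, 5 in Yijung-tang, 1 in Citri, 2 in Cimicifugae and 7 in Bupleuri, where 9.05%, 9.71%, 2.25%, 0.851%, 0.48% and 5.56% of all genes were called. Zizyphi high against low called 0 members by edgeR and by DESeq2, where edgeR called 0% of all genes. At an unadjusted p below 0.05 there were 2 members, and the share of all genes at that threshold is not given here.

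In Aconiti the medium dose differed from the high dose in 11 of the 34 genes, where 7.78% of all genes were called, a comparison added after the counts were seen. HK2 (1.36 ± 0.18, edgeR adjusted p = 1.53e-06), ADM (0.71), VEGFA (0.43), BNIP3 (0.34), PFKP (0.34), ENO2 (0.32) and NDRG1 (0.25) were higher at the medium dose on the log2 scale. CA9 (-1.34), EGLN3 (-0.99 ± 0.15, edgeR adjusted p = 7.36e-06), SLC16A3 (-0.4) and SLC2A1 (-0.32) were lower. Without Aconiti medium replicate 1 the count was 3, without medium replicate 2 it was 4, and without high replicate 3 it was 7. HK2, EGLN3 and ADM were called in each of these fits. The 2 medium libraries held 29996378 and 29556280 counts. Without the 4 libraries with much antisense RNA 18 members were called, where 20.3% of all genes were.

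Extracts of the same library set were also compared at their high doses, which avoids the separate vehicle code, again after the counts were seen. Coptidis against Zizyphi called 10 members, where 8.12% of all genes were called. HK2 (1.57), VEGFA (0.84) and NDRG1 (0.37) were higher in Coptidis on the log2 scale. SLC2A3 (-1.42), CA9 (-1.24), EGLN1 (-0.65), EGLN3 (-0.65), LDHA (-0.43), PGAM1 (-0.42) and PGK1 (-0.38) were lower. These genes had the same direction and call against vehicle, and HK2, VEGFA, SLC2A3 and NDRG1 were called in every fit without 1 library. The other calls were lost in some of these fits, whose counts lay between 4 (without Coptidis high replicate 2) and 6, and without the 4 libraries with much antisense RNA the count was 18, where 20.5% of all genes were called. Bupleuri against Aconiti called 3, where 1.33% were called: SLC2A3 (0.56), ENO2 (0.39) and CA12 (0.37) were higher in Bupleuri, ENO2 not without Aconiti high replicate 3. Without the 4 libraries the count was 6, where 5.22% were called. Cimicifugae against Citri called 5, where 7.67% were called: SLC2A1 was higher (0.25) and TPI1 (-0.7), SLC2A3 (-0.65), ENO2 (-0.4) and PKM (-0.35) were lower in Cimicifugae. The calls of SLC2A1, TPI1 and PKM were lost without the 4 libraries with much antisense RNA, and those of all but SLC2A3 without Citri high replicate 3 alone. The count ran from 1 to 12 without single libraries, the highest without Citri high replicate 1, and was 4 without the 4 libraries, where 2.49% of all genes were called.

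The abundant enzymes TPI1 and GAPDH varied widely among replicates of Citri and Cimicifugae. TPI1, triosephosphate isomerase, had 1019, 1341 and 2351 CPM in Citri high, 1023, 1560 and 1695 CPM in Citri medium, and 942, 1953 and 1006 CPM in Cimicifugae low, against 1062, 1079.5 and 1122 CPM in vehicle. GAPDH had 6056, 8531 and 9360 CPM in Citri high and 6018, 9624 and 9217 CPM in Citri medium, against 6064, 5962 and 6389 CPM in vehicle. In each of these groups 1 or 2 libraries lay above the vehicle range and the rest within or below it. Neither gene was called in a comparison with vehicle in the fit of all libraries. EGLN1 had the lowest value of its group in each of the 4 libraries with much antisense RNA: 96.3 CPM in Citri high replicate 3, 133.1 CPM in Citri medium replicate 3, 136.7 CPM in Cimicifugae medium replicate 2 and 125.8 CPM in Cimicifugae low replicate 2. The part of antisense RNA in these values was not tested.

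Banhasasim-tang had 1 library per dose and therefore no test. HK2 had 1.6, 3.1 and 4.1 CPM at low, medium and high dose, and VEGFA 46.1, 57.4 and 82.2 CPM, the highest VEGFA level of all libraries. SLC2A3 had 29.1, 22.3 and 20.1 CPM, CA9 2.11, 1.55 and 0.919 CPM, EGLN3 7.25, 5.52 and 3.72 CPM, ADM 42.5, 40.6 and 29.5 CPM and EGLN1 162.4, 138.5 and 117.1 CPM. At the high dose HK2 and VEGFA lay above and the other 5 genes below the whole vehicle range. This was not particular to them: all members but GAPDH, KDM3A and P4HA1 lay outside the vehicle range there. The share of all genes outside it was not computed, so these positions have no background.

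Other genes of the same pathways, from lists that do not overlap the 34, were also called in both directions against vehicle (edgeR adjusted p below 0.05; values are log2 fold changes). The shares of all genes called were those given above, 17.5% in Aconiti medium, 12.6% in Coptidis high and 3.36% in Bupleuri high. Of 22 further glycolysis and pyruvate genes tested, Aconiti medium called 4 higher and 5 lower, Coptidis high 2 higher and 4 lower, and Bupleuri high 3 higher and 1 lower. HKDC1, a further hexokinase, rose in Coptidis high (log2 fold change 1.03) and Aconiti medium (0.67). PDK4, a pyruvate dehydrogenase kinase, rose in Aconiti high (0.82), Aconiti medium (0.57) and Bupleuri high (0.74) but fell in Coptidis high (-0.93) and Cimicifugae high (-1.08). MPC2, a subunit of the mitochondrial pyruvate carrier, fell in Aconiti medium (-0.79) and Coptidis high (-0.51). Of 30 further hypoxia targets tested, Aconiti medium called 6 higher and 5 lower and Coptidis high 6 higher and 3 lower. STC2, stanniocalcin 2, rose in Aconiti medium (2.67), Coptidis high (2.42) and Aconiti high (1.22), and DDIT4, an inhibitor of mTOR signalling, rose in Coptidis high (1.15) and Aconiti medium (0.81). EFNA1 fell in Coptidis high (-0.82) and MIR210HG, the host transcript of a hypoxia microRNA, in Aconiti medium (-1.6). Of 8 hypoxia-inducible factor subunits and regulators tested, HIF1A, EPAS1, ARNT, VHL, EGLN2 and HIF1AN were called in neither Coptidis high nor Aconiti medium. ARNT2 rose in both (0.63 in Coptidis high and 0.6 in Aconiti medium), and CITED2 in Aconiti medium (0.8). In Aconiti medium, 3 of 7 epithelial markers fell, among them CDH1 (-2.54), and in Coptidis high 2 of 7 fell. Of 12 markers of other cell types, 5 passed the filter and none rose in Coptidis high or Aconiti medium, where 1 and 2 fell. Of 3 alveolar type 2 markers tested, ABCA3 and LAMP3 were called higher in both, ABCA3 by 0.55 in Coptidis high and 0.57 in Aconiti medium. LAMP3 lay at 0 to 0.235 CPM in vehicle and reached at most 2.81 CPM in any library. It passed the filter through libraries of other groups and could hardly be called lower, so its call carries no weight.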

How the data were processed

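RNA was sequenced with a directional kit. Per the submitters' processing notes, the tools were RSEM 1.3.3, STAR 2.7.3a, FastQC 0.11.9 and Trim Galore 0.6.5, and the build was hg38. The deposited unit is expected counts per gene, and the annotation release and strand setting are not given in the sources used here. 210 per-sample columns of the table match no sample used here and were left out. Symbols came from a reference list of gene names, or from GENCODE release 29 where that list had none. Gene positions, types and lengths came from GENCODE release 29.

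Expected counts were rounded to whole numbers, genes with few counts removed (edgeR filterByExpr, minimum count 10, minimum total 15) and TMM factors computed. One edgeR 4.0.16 quasi-likelihood model of 25 group means over 59 libraries (R 4.3.3, limma 3.58.1) gave 32 comparisons: 21 doses against vehicle, 7 high against low, and 4 added after the data were seen. Benjamini-Hochberg adjustment ran over all 18568 genes. The fit was tested on simulated data. The labels do not say that replicates were separate cultures, so p-values measure the spread between these libraries, which may be technical. Alternatives were DESeq2 1.42.0, median-ratio (RLE) factors, no count filter, separate fits of the libraries compared, the replicate block, leaving out each library (56 fits that kept the dispersion trend and genes of the full fit) and leaving out 4 libraries. Replicate numbers were checked for pairing through the correlation of deviations from group means: in Citri high against low, alone among the 32 comparisons, every pair exceeded 0.1 over at least 3 pairs (0.122 to 0.235). Figures were drawn with Python 3.11.15 and matplotlib 3.10.9.

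The members and lists were chosen with earlier results of these data known. Values of every library are given for members called in a high dose, in the lower doses of Coptidis or the medium dose of Aconiti, or between high and low, with at most 6 in each direction where more than 12 were called, and for 11 members always. Further members were added where they complete a gene's account. Of the other lists, at most 4 called genes are named per comparison by size of change. Promoters are those of the 2 glycolysis genes and 2 hypoxia targets with the largest change in the comparison with the most calls.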

Additional observations from a re-analysis of the deposited data

Results flagged for a closer look

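The response to dose differed between extracts of one library set in 6 cases, tested as the difference of the high-against-low log2 fold changes (edgeR interaction, adjusted over all genes). Of all 18568 genes, 23 had a difference called above 0 and 43 below 0 for Coptidis minus Zizyphi. For Cimicifugae minus Citri these counts were 136 and 1168, and for Bupleuri minus Aconiti 42 and 17. Whether the members exceeded these shares was not tested. For SLC2A3 the difference was -0.9 ± 0.16 (SE) for Coptidis minus Zizyphi (edgeR adjusted p = 0.00207), -0.46 ± 0.13 for Cimicifugae minus Citri (edgeR adjusted p = 0.0363) and 0.54 ± 0.13 for Bupleuri minus Aconiti (edgeR adjusted p = 0.0319). For HK2 it was 1.48 ± 0.32 for Coptidis minus Zizyphi (edgeR adjusted p = 0.0241). For Cimicifugae minus Citri it was -1.03 ± 0.27 for TPI1 and -0.59 ± 0.12 for ENO2 (edgeR adjusted p = 0.0363 and 0.0124). Without the 4 libraries with much antisense RNA the Cimicifugae minus Citri differences were -0.2 for TPI1, -0.44 for ENO2 and -0.54 for SLC2A3 (edgeR adjusted p = 0.861, 0.0991 and 0.0551). The other 3 were then -0.89 and 0.54 for SLC2A3 and 1.5 for HK2, all with an adjusted p still below 0.05. In that fit 4 further differences passed: -0.31 for PGK1 and 0.4 for VEGFA in Coptidis minus Zizyphi, and 0.43 for ENO2 and 0.31 for CA12 in Bupleuri minus Aconiti (edgeR adjusted p = 0.0398, 0.0294, 0.00757 and 0.0181). The count over all genes in that fit was not computed.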

How the results depend on the processing

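Of 102 calls of members in the 32 comparisons, 45 held in every alternative, 57 were lost in some and 0 reversed, and 48 were lost in some fit without 1 library. DESeq2, RLE factors and the replicate block lost 0 of the 102, leaving out the 4 libraries with much antisense RNA lost 4, separate fits of the libraries compared lost 9, and no filter on low counts lost 43. The following are counts of members called. The shares of all genes called are given above for the fits without the 4 libraries. For the other alternatives they are not given here, so those counts have no background. DESeq2 gave 5 in Citri high, 8 in Yijung-tang high, 1 in Cimicifugae medium, and 5 each in Coptidis and Citri high against low. No count filter gave 8 in Coptidis high, 0 in Coptidis low, 3 each in Citri high and Bupleuri high, 1 in Citri medium and 5 in Aconiti high, with 5 for Coptidis against Zizyphi, 2 for Cimicifugae against Citri, 1 for Bupleuri against Aconiti and 4 for Aconiti medium against high. Separate fits against vehicle gave 28, 17 and 8 in Coptidis high, medium and low, 17, 7 and 5 in Bupleuri, 16, 2 and 2 in Yijung-tang, 17 and 4 in Aconiti high and low, and 0 in Citri high. For high against low they gave 24 in Coptidis, 0 in Citri, 0 in Cimicifugae, 7 in Bupleuri, 14 in Aconiti and 7 in Yijung-tang, and otherwise 23 for Coptidis against Zizyphi, 0 for Cimicifugae against Citri, 7 for Bupleuri against Aconiti and 19 for Aconiti medium against high. Without the 4 libraries the counts against vehicle were 22, 12 and 3 in Coptidis, 13, 3 and 3 in Bupleuri, 13 in Yijung-tang high, 5 and 6 in Cimicifugae high and medium, and 2 in Aconiti low. High against low gave 11 in Coptidis, 1 in Citri, 2 in Cimicifugae, 7 in Bupleuri, 11 in Aconiti and 5 in Yijung-tang, and 18 were called for Coptidis against Zizyphi, 6 for Bupleuri against Aconiti and 18 for Aconiti medium against high. The cause of these shifts was not tested. With the replicate block the count was 16 in Coptidis high, 6 in Bupleuri high, 5 in Yijung-tang high, 11 for Coptidis against Zizyphi and 3 in Citri high against low, the comparison whose numbers paired, and no other count changed. Leaving out each library gave 9 to 13 in Coptidis high, 3 to 5 in medium and 0 in low, 0 to 9 in Citri high, 0 to 6 in Citri medium, 1 in Cimicifugae high, 2 to 3 in Bupleuri high, 7 to 9 in Aconiti high, 10 to 15 in Aconiti medium and 2 to 4 in Yijung-tang high. For high against low it gave 2 to 3 in Coptidis, 0 to 8 in Citri, 1 in Cimicifugae, 1 in Bupleuri, 5 to 6 in Aconiti and 1 to 3 in Yijung-tang, and 4 to 6 for Coptidis against Zizyphi, 1 to 12 for Cimicifugae against Citri, 2 to 3 for Bupleuri against Aconiti and 3 to 9 for Aconiti medium against high. The remaining comparisons gave 0 in each such fit. By longest transcript in place of merged exons, GAPDH stayed highest and HK2 lowest per kb. A lone library left in a group was assumed to vary like the other groups. Genes near 1 CPM, such as HK2, CA9 and ALDOC, rest on few counts.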
